A study of Mus musculus with 9 samples.

Results

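Cathepsins are the main proteases of the lysosome, the acidic compartment in which cells break down proteins taken up from outside or delivered by autophagy. They were followed here as 10 genes (Ctsa, Ctsb, Ctsc, Ctsd, Ctsf, Ctsh, Ctsl, Ctso, Ctss and Ctsz) of the 23309 gene symbols of the files, and their RNA levels were compared in D2.0R cells. The 10 were chosen with earlier results of these data known, and 15 further cathepsin and cathepsin-like genes are described apart. D2.0R is a mouse mammary tumour cell line that rests on Cultrex basement membrane extract (BME) and starts to divide once type I collagen (COL1) is mixed into it. RNA was sequenced from 3 cultures grown on BME for 1 day, 3 grown on BME for 5 days and 3 grown for 5 days on BME + COL1. All cultures were kept in medium with a low serum content, and all came from this 1 line, so the values hold for it alone.

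The label covers 3 classes of enzyme. Ctsd is an aspartic endopeptidase, Ctsa is a serine carboxypeptidase, and the other 8 are cysteine proteases of the papain family. Most are made as inactive precursors, tagged with mannose 6-phosphate in the Golgi, carried to the lysosome by receptors for that tag and activated there by the acid pH and by other proteases. Cystatins block the cysteine cathepsins that leave the lysosome. Many lysosomal genes carry the sequence CACGTG, or its longer form TCACGTGA, near their start, which transcription factors of the MiT/TFE family can bind.

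The start regions of the members differed in this sequence. Windows from 250 bases before to 50 bases after each transcript start were read from the mouse genome build mm9, the build of the files, and searched on both strands. CACGTG occurred in 7.72% of the 25834 windows of all annotated starts and TCACGTGA, which contains it, in 1.17%. Among the members, CACGTG was found at Ctsa, Ctsb, Ctsd and Ctsf and not in the windows of Ctsc, Ctsh, Ctsl, Ctso, Ctss and Ctsz. The 150 bases before the start are given for the 4 genes with a match, and for Ctsl and Ctsc, which have the largest and the smallest matrix difference among the abundant members without one. Each is written 5′ to 3′ on the strand of its gene, with CACGTG in capitals.
Ctsa (chr2:164659123-164659272, plus strand): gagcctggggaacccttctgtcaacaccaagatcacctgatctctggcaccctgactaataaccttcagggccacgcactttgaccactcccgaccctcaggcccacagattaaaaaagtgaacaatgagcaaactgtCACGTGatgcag
Ctsb (chr14:63741149-63741298, plus strand): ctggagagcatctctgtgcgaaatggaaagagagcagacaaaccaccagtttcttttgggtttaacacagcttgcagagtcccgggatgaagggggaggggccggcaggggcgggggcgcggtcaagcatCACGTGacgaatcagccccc
Ctsd (chr7:149573776-149573925, minus strand): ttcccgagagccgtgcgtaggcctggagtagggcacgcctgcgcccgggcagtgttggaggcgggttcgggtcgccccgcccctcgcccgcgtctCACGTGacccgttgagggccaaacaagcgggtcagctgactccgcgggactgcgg
Ctsf (chr19:4854979-4855128, plus strand): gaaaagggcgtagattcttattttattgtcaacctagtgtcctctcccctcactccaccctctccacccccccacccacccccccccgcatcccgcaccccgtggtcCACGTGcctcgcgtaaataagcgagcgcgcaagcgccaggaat
Ctsl (chr13:64471615-64471764, minus strand): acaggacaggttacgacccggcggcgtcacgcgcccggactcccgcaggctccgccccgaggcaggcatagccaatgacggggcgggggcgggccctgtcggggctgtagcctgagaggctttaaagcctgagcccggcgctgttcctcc
Ctsc (chr7:95426453-95426602, plus strand): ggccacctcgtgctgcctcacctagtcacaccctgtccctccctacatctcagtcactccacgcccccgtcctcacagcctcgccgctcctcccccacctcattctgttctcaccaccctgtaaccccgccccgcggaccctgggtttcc

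In Ctsa the capitals begin 12 bases before the start of its main transcript, and a further copy begins at base 6 of the transcript. Both have the longer form TCACGTGA. The match begins 20 bases before the start in Ctsb, 55 in Ctsd and 43 in Ctsf. Those of Ctsb and Ctsd extend to TCACGTGA, and that of Ctsf does not. A further CACGTG of Ctsd begins 202 bases before its start, outside the stretch printed. The AP-1 sequence TGANTCA was found at none of the members (7.13% of all windows), and the GC box GGGCGG, present in 45.2% of all windows, was found at 8 of them, all but Ctsa and Ctsh. These are letters in the genome and not measurements of binding.

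Levels were measured as FPKM, the number of sequenced fragments scaled by transcript length and by the fragments mapped in the library, so levels of different genes can be compared. Ctsd was the most abundant member in every library. On BME at day 5 its level was 501, 659 and 545 FPKM in replicates a, b and c. The 3 libraries on BME at day 1 gave 377, 363 and 426 FPKM, and the 3 on BME + COL1 at day 5 gave 167, 169 and 172. No value of 1 group fell in the range of another. Ctsd ranked between 36 and 115 among all genes on BME at day 5, between 129 and 141 at day 1 and between 374 and 382 on BME + COL1.

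**Figure D1:**
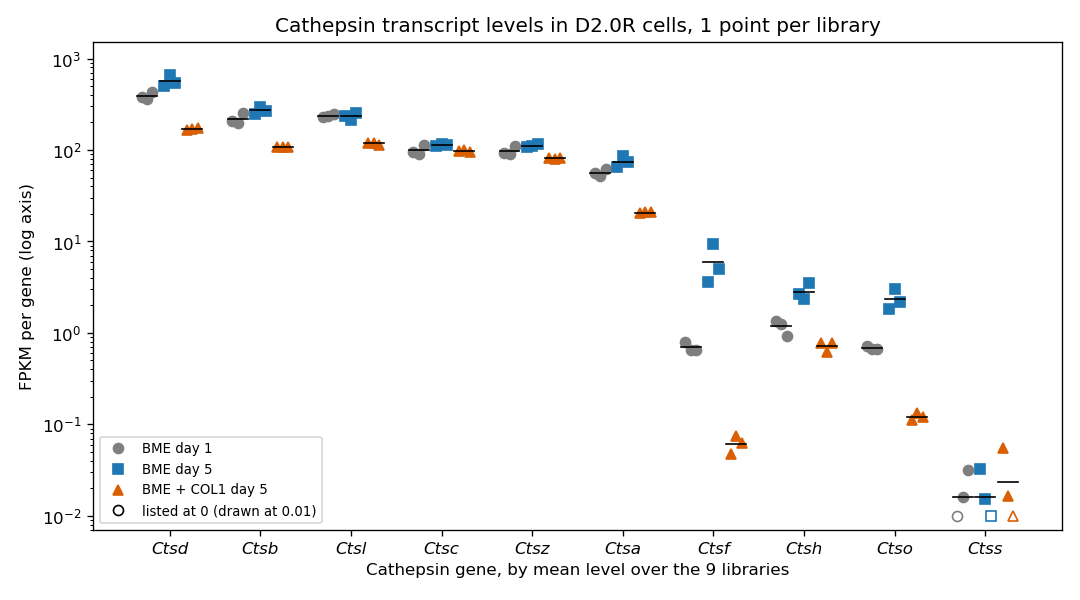
FPKM of each cathepsin in the 9 libraries on a log axis, with 1 point per library, a line at the mean of each group, and open symbols at 0.01 for libraries in which Ctss was listed at 0. Ctsf, Ctsh and Ctso lie far below the 6 abundant members, and the BME + COL1 libraries are the lowest for every member but Ctsc and Ctss.

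The 10 genes formed an abundant and a scarce set. At day 1 on BME the order of the means was Ctsd (389 ± 33.4 FPKM, SD, n = 3), Ctsl (238 ± 7.82), Ctsb (219.8 ± 27.9), Ctsc (89.9 to 114), Ctsz (97.8 ± 10.4) and Ctsa (56.7 ± 4.85). Ctsh (1.19 ± 0.221), Ctsf (0.701 ± 0.0911) and Ctso (0.682 ± 0.0258) followed. The ranges over libraries overlapped between Ctsl and Ctsb, between Ctsc and Ctsz and between Ctsf and Ctso, so the order within these pairs is not resolved. At day 5 on BME, Ctsb (270.4 ± 25.0) and Ctsl (233 ± 22.7) overlapped again, Ctsc (114 ± 2.39) and Ctsz (111 ± 4.12) as well, and Ctsf (3.64 to 9.41) stood above Ctsh and Ctso. On BME + COL1, Ctsl (118 ± 3.07), Ctsb (108 ± 0.327), Ctsc (97.7 ± 3.08) and Ctsz (81.8 ± 0.969) were all separate. Ctss, a protease of antigen-presenting cells, was between 0 and 0.0545 FPKM in the 9 libraries, under the minimum for testing.

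The summed level of the 10 genes was 1035 to 1211 FPKM in the day 1 cultures, 1275 to 1496 after 5 days on BME and 593 to 601 on BME + COL1. This was 0.306% ± 0.0206 (SD, n = 3), 0.423% ± 0.0878 and 0.142% ± 0.00187 of all FPKM. Within the sum, the cysteine proteases took 59.3% to 59.9% at day 1, 50.2% to 55.6% after 5 days on BME and 67.5% to 68.6% on BME + COL1. Ctsd took 35.0% to 35.4%, 39.3% to 44.1% and 28.0% to 29.0%. Ctsc and Ctsz held the larger shares on BME + COL1, 15.9% to 16.8% and 13.4% to 13.9%, against 7.77% to 9.40% and 7.43% to 9.06% in the 6 libraries on BME alone. With 3 libraries a group an exact permutation test cannot give a p below 0.1, so the sums and shares are described without a test.

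**Figure D2:**
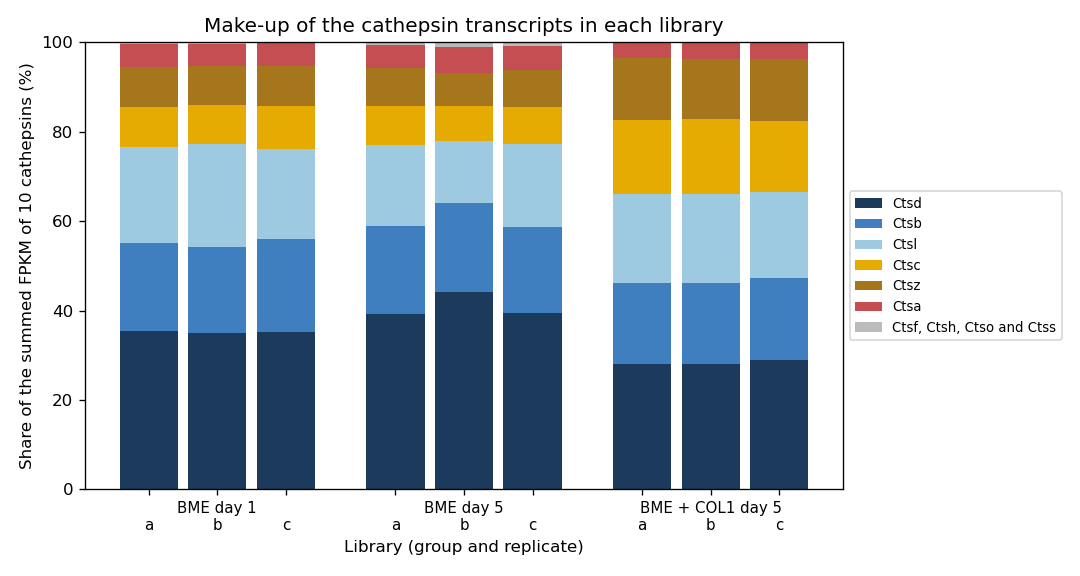
Share of each cathepsin in the summed FPKM of the 10 genes, in percent, as 1 stacked bar per library. The Ctsd share is largest in the 3 BME day 5 libraries (39.3% to 44.1%), and the shares of Ctsc and Ctsz are largest in the 3 BME + COL1 libraries.

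Some facts of the libraries touch these values. Aligned sequence over transcripts came to 7.21 to 9.37 gigabases a library. Replicate b of BME day 5 had the least (7.21) and the smallest sum of FPKM, 287611 against 347339 to 423289 in the others, and it held the highest values of Ctsa, Ctsb, Ctsc, Ctsd, Ctsf and Ctso. Of 15 macrophage and other haematopoietic markers, cells in which cathepsins are abundant, 13 were under 1 FPKM in every library, with Adgre1 at 0 in all. The list summed to 7.67 to 10.9 FPKM at day 1, 6.46 to 7.25 on BME at day 5 and 4.96 to 5.32 on BME + COL1, of which Cd68, itself a lysosomal protein, and Cd14 made up most. Other markers moved between the groups. Of 8 fibroblast markers, 5 were under 1 FPKM throughout and Lum was at 0 in every library, but the list summed to 26.4 to 36.1 FPKM on BME at day 5, 20.1 to 27.9 at day 1 and 4.52 to 4.70 on BME + COL1, mostly through Pdgfra. Endothelial markers (6 of 7 under 1 FPKM, Emcn at 0 throughout) summed to 10.3 to 12.6, 14.1 to 17.3 and 17.1 to 18.8 FPKM in the same order, nearly all from Flt1. Adipocyte markers (3 of 4 under 1 FPKM, none at 0 throughout) summed to 2.45 to 3.43, 0.0816 to 0.181 and 0 to 0.127 FPKM, from Fabp4. Of 8 epithelial markers, 2 were under 1 FPKM throughout and none at 0 in every library. They summed to 785 to 1170 FPKM after 5 days on BME, 1463 to 1628 after 1 day and 2364 to 2471 on BME + COL1, mostly as Krt8 and Krt18, while Epcam had group means of only 0.73, 1.29 and 0.821. The 4 cell cycle markers, all detected, summed to 25.7 to 94.6, 85.4 to 99.2 and 317 to 330.1 FPKM. The part of these markers in the cathepsin results was not tested, and in bulk RNA fewer cells of a kind and less RNA per cell cannot be told apart.

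The first comparison asked how the matrix changed the members at day 5, in cultures on BME against those on BME + COL1. Log2 values with 0.1 FPKM added were fitted by limma over all genes whose mean level reached 1 FPKM, and a gene was called where its adjusted p was under 0.05. Of the 6 abundant members, 5 were higher on BME (Ctsa, Ctsb, Ctsd, Ctsl and Ctsz) and Ctsc was not called. Of all 10497 genes tested, 30.3% were higher and 45.3% lower. The scarce Ctsf, Ctsh and Ctso were also called higher, but without their level on BME at day 5 they would not have reached the minimum mean, so they are not set against these shares. The median change of the 6 abundant members was 1.15, and that of all genes was -0.18. The 3 BME libraries lay above the 3 BME + COL1 libraries in each of the 6, as they did for 32.1% of all genes.

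Ctsa, a carboxypeptidase that also holds the sialidase Neu1 and the galactosidase Glb1 in a stable complex, and Ctsd had changes of similar size, larger than those of the other abundant members. The level of Ctsa was 64.9, 86.4 and 73.2 FPKM on BME and 20.3, 21.1 and 20.8 on BME + COL1, without overlap. Ctsa was higher by 1.84 on the log2 scale (standard error 0.11, limma adjusted p = 8.54e-07), a ratio of means of 3.61. Ctsd was higher by 1.74 (standard error 0.11, limma adjusted p = 1.35e-06), a ratio of 3.36.

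Ctsb, which cleaves inside chains and also removes dipeptides from their carboxyl end, was at 249, 298 and 264 FPKM on BME. On BME + COL1 its 3 libraries lay within 107 to 108 FPKM. The difference of 1.32 (standard error 0.11, limma adjusted p = 4.80e-06) exceeded the spread of both groups. Ctsl, an endopeptidase, was at 233, 211 and 256 FPKM on BME against 119, 120.4 and 115 on BME + COL1, higher by 0.98 (standard error 0.09, limma adjusted p = 9.42e-06).

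The exopeptidases Ctsz and Ctsc differed least. Ctsz, which removes single residues from the carboxyl end, was at 108, 111 and 116 FPKM on BME and 82.4, 80.7 and 82.3 on BME + COL1. It was higher by 0.45 (standard error 0.09, limma adjusted p = 0.00124). Ctsc, or dipeptidyl peptidase I, which activates granule serine proteases of immune cells, was at 112, 116 and 115 FPKM against 98.0, 101 and 94.5. Its libraries did not overlap, but the change of 0.22 (standard error 0.10) missed the threshold (limma adjusted p = 0.0547). This miss depended on the scaling: with FPKM converted to TPM, so that every library has the same sum, the change was 0.57 and was called (limma adjusted p = 0.000814), as it also was with median-ratio or quantile scaling, without genes under 300 bases, with the 6 libraries compared alone and without day 1 replicate b or c (limma adjusted p = 0.00023 to 0.049). The median of all genes moved from -0.18 to 0.16 with the same conversion, and relative to that median Ctsc lay 0.41 higher under either scale. The calls over all genes also turned, from 30.3% higher and 45.3% lower to 46.3% and 31.7%.

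Among the scarce members, Ctsf and Ctso had wider gaps than any abundant member with 0.1 FPKM added (Ctso no longer with 1 FPKM added), and Ctsh did not. Ctsf, a cysteine protease whose loss in humans causes a neuronal storage disease, was at 3.64, 9.41 and 4.95 FPKM on BME and 0.0475, 0.0747 and 0.0630 on BME + COL1. The value on BME + COL1 rests on 1.00 to 1.36 kilobases of aligned sequence a library, and the interval given by Cufflinks, the program that made the FPKM, reached at least 75.6% to either side of it. The change was 5.13 with 0.1 FPKM added (standard error 0.32, limma adjusted p = 9.95e-07), 2.64 with 1 FPKM and 6.29 with 0.01 FPKM, so its size is not fixed by these data. Ctso, a little studied cysteine protease, was at 1.84, 3.01 and 2.17 FPKM against 0.110, 0.134 and 0.121. Its change was 3.43 (standard error 0.24, limma adjusted p = 1.88e-06), and 1.56 or 4.13 with 1 or 0.01 FPKM added. Ctsh, an aminopeptidase, was at 2.64, 2.36 and 3.49 FPKM against 0.784, 0.612 and 0.771, higher by 1.82 (standard error 0.19, limma adjusted p = 2.47e-05), or 1.14 with 1 FPKM added.

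**Figure D3:**
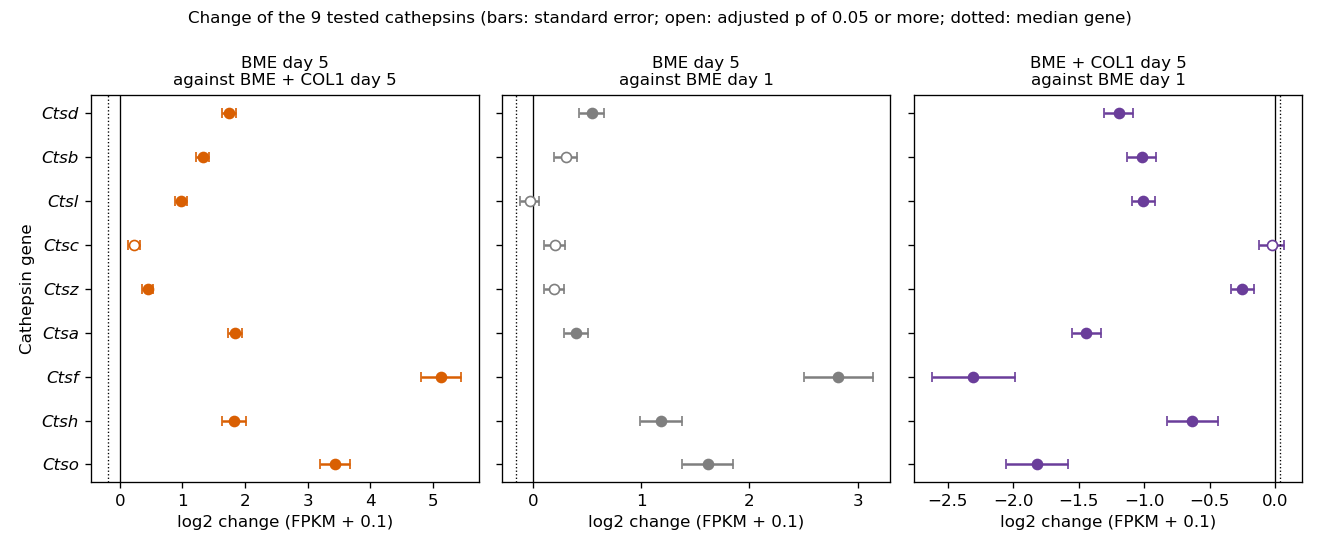
Log2 change of the 9 tested cathepsins in the 3 comparisons, with bars for the standard error, filled points for members called at an adjusted p under 0.05 and a dotted line at the median of all genes. On BME against BME + COL1 at day 5 the changes run from 0.22 (Ctsc) to 5.13 (Ctsf), and on BME between day 1 and day 5 from -0.03 (Ctsl) to 2.82 (Ctsf).

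The second comparison asked what changed on BME between day 1 and day 5. It shares the BME day 5 libraries with the first, so the 2 sets of changes are not independent. Of the 6 abundant members, Ctsa and Ctsd were called higher and the other 4 were not called. Of all genes, 9.09% were higher and 22.2% lower, and the median change was -0.15. The scarce Ctsf, Ctsh and Ctso were called higher too, but as before they were tested only because of their level on BME at day 5.

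Ctsd was higher by 0.54 (standard error 0.11, limma adjusted p = 0.00943), a ratio of means of 1.46. Ctsa was at 56.3, 52.0 and 61.7 FPKM at day 1, below its 3 values at day 5, and was higher by 0.39 (standard error 0.11, limma adjusted p = 0.0269). Both calls were lost when the spread was taken from the 6 libraries compared alone (limma adjusted p = 0.0877 for Ctsa and 0.0597 for Ctsd). That of Ctsa was also lost without replicate a or b of day 1 or replicate c of BME day 5. Ctsf (0.806, 0.650 and 0.647 FPKM at day 1) was higher by 2.82 (standard error 0.32, limma adjusted p = 0.00064), Ctso (0.712, 0.666 and 0.669) by 1.61 and Ctsh (1.35, 1.27 and 0.935) by 1.19.

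Ctsb, Ctsc and Ctsz had overlapping libraries on the 2 days. At day 1, Ctsb was at 208, 199 and 252 FPKM and changed by 0.30 (standard error 0.11, limma adjusted p = 0.0572). Ctsc was at 96.2, 89.9 and 114 FPKM at day 1, with a change of 0.20, and Ctsz at 93.5, 90.3 and 109.7, with a change of 0.19 (standard errors 0.10 and 0.09, limma adjusted p = 0.129 and 0.116). In all 3, replicate c of day 1 was the highest of its group. Without that library, and also with TPM, median-ratio or quantile scaling, all 3 were called higher. The share of all genes called without that library is not given here. Ctsb was also called without BME day 5 replicate a. With these scalings more of all genes were called higher too, 14.6% with TPM (21.3% lower), 18.7% with median-ratio scaling (17.5% lower) and 18.1% with quantile scaling (19.5% lower). Ctsl was at 229.6, 238 and 245 FPKM at day 1. Its change of -0.03 (standard error 0.09, limma adjusted p = 0.792) had no stable sign and was not called under any alternative run.

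The third comparison set BME + COL1 at day 5 beside BME at day 1, so matrix and time differ together and cannot be told apart. Its libraries are those of the first 2 comparisons. Of the 6 abundant members, 5 were lower on BME + COL1 and Ctsc was not called, where 31.8% of all genes were lower and 34.2% higher (46.4% and 25.1% with TPM). The 3 scarce members were also called lower. Ctsa fell by 1.44, Ctsd by 1.20, Ctsb by 1.02 and Ctsl by 1.01 on the log2 scale, with standard errors of 0.09 to 0.11. Ctsz fell by 0.25 (standard error 0.09, limma adjusted p = 0.0296), a call lost without day 1 replicate c or without any 1 of the BME + COL1 libraries. Ctsc differed by -0.03 (standard error 0.10, limma adjusted p = 0.821), and was called lower only with quantile scaling (-0.28). Ctsf, Ctso and Ctsh fell by 2.31, 1.82 and 0.64. The Ctsh call was lost without day 1 replicate a and without BME + COL1 replicate b, and with quantile scaling (change -0.04), and that of Ctso was lost with quantile scaling (-0.46).

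Some proportions between members therefore differed between the groups. The Ctsd to Ctsl ratio was 1.52 to 1.74 on BME at day 1, 2.13 to 3.13 at day 5 and 1.43 ± 0.0584 (SD, n = 3) on BME + COL1. The Ctsd to Ctsc ratio was 3.74 to 4.04, 4.49 to 5.67 and 1.68 to 1.82 in the same order. These ratios within a library do not change when a library is scaled by 1 factor, and the 3 groups did not overlap in either. The Ctsz to Ctsc ratio stayed within 0.956 to 1.01 in the 6 libraries on BME alone and was 0.802 to 0.871 on BME + COL1. The Ctsb to Ctsl ratio on BME + COL1, 0.898 to 0.938, lay inside the BME day 1 range of 0.838 to 1.026. On BME at day 5 it was 1.033 to 1.414.

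Of the members, Ctsa and Ctss have more than 1 transcript in the files. The Ctsa transcript with the upstream start, whose window holds no CACGTG, took 12.8% to 14.4% of the gene's FPKM on BME at day 1, 10.1% to 10.8% at day 5 and 15.3% to 18.5% on BME + COL1. The 3 groups did not overlap. Its own level was 6.96 to 9.29 FPKM on BME at day 5 and 3.23 to 3.75 on BME + COL1, against 58.0 to 77.1 and 16.5 to 17.9 for the main transcript, so both transcripts were lower on BME + COL1. The span of Ctsa from start to end, introns included, overlaps those of Pltp (1515 bases) and Neurl2 (725 bases) on the other strand. That of Ctsb overlaps the span of Fdft1 (773 bases). How much of this is shared exon was not measured. Whether strand was used in counting is not stated, so reads from any exon shared there cannot be assigned with certainty. The overlapping genes reached at most 9.68 FPKM for Pltp, 1.43 for Neurl2 and 54.4 for Fdft1.

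Over the 9 libraries the abundant members with large changes varied together. The Pearson correlation of log2 values was 0.99 to 1.00 between Ctsa, Ctsb and Ctsd, 0.91 to 0.94 between these 3 and Ctsl, and 0.44 to 0.84 between Ctsc and the other members. Points of 1 group share their matrix and day, so these values describe 3 groups more than 9 separate points. The genes whose pattern was most like that of a member were Tcn2, Gpr153 and Pld3 for Ctsa (r = 0.999, 0.999 and 0.998), Arvcf, Cpt1a and Slc47a2 for Ctsb (0.999, 0.999 and 0.998) and Cyp1b1, Ttc5 and Bckdha for Ctsd (0.999, 0.998 and 0.998). For Ctsl they were A4galt, Nagk and Dtx3 (0.998, 0.998 and 0.997) and for Ctsz Dap, Laptm4b and Nol3 (0.993, 0.991 and 0.991). For Ctsf they were Wnt4, Nfatc4 and Chchd10 (0.998, 0.997 and 0.996), for Ctso Apbb1, Pcdhgb1 and Ccpg1 (0.998, 0.997 and 0.996) and for Ctsh Fibp, Rdh14 and Clybl (0.990, 0.986 and 0.982). Such likeness was common for most members, with 1041 genes above an r of 0.95 for Ctsa, and rare for Ctsc, with 9 genes, led by Tenc1, Rab33b and Gm14325 (0.978, 0.975 and 0.972).

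Of 15 further cathepsin and cathepsin-like genes, 13 were under 1 FPKM in every library. Ctsw, of cytotoxic lymphocytes, was at 0.891 to 2.33 FPKM on BME at day 1 and 0.136 to 0.504 at day 5, and at 0.855 to 0.989 on BME + COL1, above all 3 BME libraries of that day. Its mean was under the minimum for testing. Only Tinagl1, a secreted relative without protease activity, was tested. It was at 32.1, 26.7 and 30.2 FPKM on BME at day 5 against 41.5, 41.5 and 42.8 on BME + COL1, the direction opposite to that of the called members, with a change of -0.50 (standard error 0.10, limma adjusted p = 0.00132) that was not called with TPM or quantile scaling.

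The inhibitors of the cysteine cathepsins were measured beside them. Of 12, 8 were under 1 FPKM throughout and 3 were tested, and all 3 were higher on BME than on BME + COL1 at day 5. In the same comparison 30.3% of all genes tested were higher and 45.3% lower (46.3% and 31.7% with TPM). Cst3, the secreted cystatin C, was at 237, 265 and 249 FPKM on BME and 160.4, 157 and 172 on BME + COL1, higher by 0.62 (standard error 0.09, limma adjusted p = 0.000241). The cytosolic stefin Cstb was higher by 0.77 and Cst6, a further secreted cystatin, by 1.03. Between day 1 and day 5 on BME the inhibitors went apart. Cst3 rose by 0.60 (standard error 0.09, limma adjusted p = 0.00283), whereas Cstb fell by 0.49 (standard error 0.11, limma adjusted p = 0.0107). The Ctsb to Cstb ratio was 0.647 to 0.969 at day 1, 1.16 to 1.62 on BME at day 5 and 0.871 to 0.903 on BME + COL1, and the BME day 5 libraries lay above all others. The Ctsl to Cst3 ratio was 1.35 to 1.59, 0.795 to 1.03 and 0.665 to 0.765, highest at day 1.

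The 4 cofactors and complex partners were all higher on BME than on BME + COL1 at day 5, with a median change of 1.48. Among all genes tested the share higher was 30.3%, or 46.3% with TPM, and the share lower 45.3%, or 31.7% with TPM. Psap, the precursor of the saposins and a substrate of Ctsd, was at 847, 971 and 935 FPKM on BME, 188, 189.9 and 185 on BME + COL1 and 585, 556 and 726 at day 1. It was higher by 2.29 on BME at day 5 than on BME + COL1 (standard error 0.11, limma adjusted p = 2.85e-07) and by 0.57 than at day 1. Neu1, the sialidase held by Ctsa, was at 12.7, 14.2 and 14.6 FPKM against 3.17, 3.36 and 3.19, higher by 2.06 (standard error 0.08, limma adjusted p = 8.81e-08). On BME its change from day 1 to day 5 was -0.02 and was not called.

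Of 6 other lysosomal peptidases tested, 5 were higher on BME than on BME + COL1 at day 5 and 0 lower. Of all genes tested, 30.3% were higher and 45.3% lower (46.3% and 31.7% with TPM). The carboxypeptidase Cpq was at 25.3, 37.4 and 29.2 FPKM against 1.92, 1.96 and 1.98, higher by 3.88 (standard error 0.20, limma adjusted p = 3.87e-07), and by 2.33 than at day 1. Dpp7 was higher by 2.13 than on BME + COL1. Lgmn, the asparaginyl endopeptidase that processes several cathepsins, was at 73.2, 74.5 and 81.6 FPKM on BME, 43.0, 43.8 and 42.2 on BME + COL1 and 59.9, 57.0 and 69.8 at day 1. It was higher by 0.83 than on BME + COL1 and by 0.30 than at day 1 (standard errors 0.09, limma adjusted p = 3.08e-05 and 0.0355). Prcp differed by 0.05 and was not called, nor was it with quantile scaling, but it was called higher with TPM (0.40) and median-ratio scaling (0.23).

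In the fit reported, the genes that tag and carry the enzymes did not move as 1 block. Of 12 genes of mannose 6-phosphate tagging and sorting, 6 were higher on BME than on BME + COL1 at day 5, 2 were lower and 4 had no call. With TPM, median-ratio or quantile scaling, 10 were higher and 1 was lower. Of all genes tested, 30.3% were higher and 45.3% lower in the fit reported, and 46.3% and 31.7% with TPM. The shares were 39.5% and 39.6% with median-ratio and 36.1% and 40.4% with quantile scaling. The large receptor Igf2r was at 28.7, 23.3 and 26.2 FPKM on BME and 11.2, 11.8 and 10.6 on BME + COL1, higher by 1.21 (standard error 0.09, limma adjusted p = 2.29e-06). The small receptor M6pr was at 61.5, 51.5 and 64.0 FPKM against 58.4, 61.6 and 58.9, and its libraries overlapped (change -0.02, standard error 0.09, limma adjusted p = 0.851). M6pr was called higher with TPM (change 0.32), median-ratio (0.16) and quantile scaling (0.41), so its lack of a call depended on the scaling. Sort1, a receptor that does not need the tag, was higher by 1.31 and Gnptg, a subunit of the tagging enzyme, by 1.29. The adaptor Gga3 was lower by 0.70. From day 1 to day 5 on BME, Sort1 was called higher and 3 genes lower, while Igf2r and M6pr were not called. These counts lie near the shares of all genes, 9.09% higher and 22.2% lower.

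Of the MiT/TFE factors, Tfeb and Tfe3 were tested. Tfeb was at 5.71, 5.09 and 5.80 FPKM on BME at day 5, 3.28, 3.41 and 3.31 on BME + COL1 and 3.70, 3.48 and 4.19 at day 1. It was higher by 0.71 than on BME + COL1 and by 0.53 than at day 1 (standard errors 0.09, limma adjusted p = 6.85e-05 and 0.00373). Tfe3 was at 17.1, 14.4 and 17.5 FPKM against 16.7, 17.9 and 16.4 on BME + COL1, with no call (change -0.06). It was called higher with TPM (0.28), median-ratio (0.12) and quantile scaling (0.21). Against day 1, Tfe3 was lower by 0.47. Mitf stayed under 1 FPKM, with 0.328 to 0.552 on BME at day 5 and 0.0821 to 0.0992 on BME + COL1, and Tfec was listed at 0 in all libraries. RNA levels of these factors do not show where the proteins are or whether they act.

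**Figure D4:**
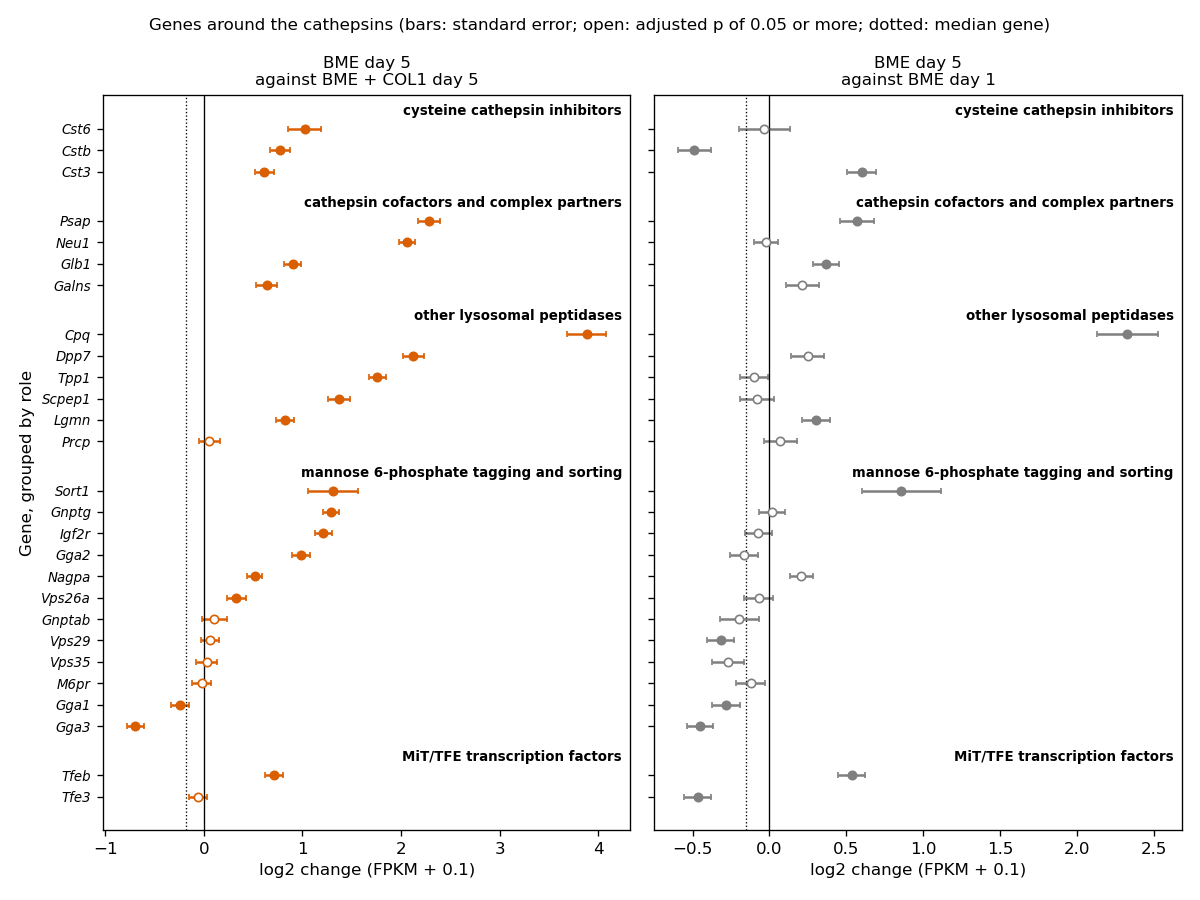
Log2 change of the tested genes around the cathepsins on BME at day 5, against BME + COL1 at day 5 (left) and against BME at day 1 (right), grouped by role, with bars for the standard error, filled points for called genes and a dotted line at the median of all genes. Cofactors and peptidases lie at 0.05 to 3.88 in the left panel, and the sorting genes run from -0.70 (Gga3) to 1.31 (Sort1).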

How the data were processed

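The files hold 1 Cufflinks transcript table per library. The authors extracted total RNA, made directional libraries and, per the labels' processing notes, used CASAVA 1.8.4, Trimmomatic 0.30, TopHat2 2.0.8 and Partek (version not given) with the builds mm9 and NCBIM37. The Cufflinks version and its strand setting are not given in the sources used here. The deposited FPKM of 30563 RefSeq transcripts were added up per gene symbol. The 10497 genes whose mean over the 9 libraries reached 1 FPKM were fitted as log2(FPKM + 0.1), which understates changes of low genes, by limma 3.58.1 (R 4.3.3) with an intensity trend, 3 group means and 6 residual degrees of freedom. Tests were two-sided, with Benjamini-Hochberg adjustment within each comparison. The fit was tested on simulated data. Cultures were labelled as replicates a to c, and nothing used here says whether they were separate days, so p-values measure the spread between these cultures. Depth was taken from the read coverage in the files. The files give no fragment counts, so no counting interval was computed. Cufflinks intervals are quoted where given.

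The members and gene lists were chosen with earlier results of these data known, so no list count is independent evidence. Named beside the members were at most 2 higher and 2 lower called genes of each list and comparison, a few genes named whatever their values, and the 3 genes most correlated with each member. Ctsw was named after its values were seen, and Prcp, not called in the fit reported, was named outside this rule. No sequence table of the proteins was used, so planned protein features are not analysed here. Motifs were searched in the NCBIM37 genome. Alternatives were pseudocounts of 1 and 0.01, all genes above 0 or only those with a mean of 5 FPKM, scaling to TPM, by median ratios or by quantiles, leaving out genes under 300 bases (with rescaling), the most abundant transcript, the 6 libraries compared, no trend, a replicate block and leaving out each library. Figures were drawn with Python 3.11.15 and matplotlib 3.10.9.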

Additional observations from a re-analysis of the deposited data

How the results depend on the processing

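Of the members called between BME and BME + COL1 at day 5, 8 were called in the fit reported, 5 with a minimum mean of 5 FPKM, which leaves the 6 abundant members, and 8 to 9 when 1 library was left out. Between day 1 and day 5 on BME, 5 were called, 8 with TPM, median-ratio or quantile scaling, 3 with the 6 libraries compared, 2 with the minimum of 5 FPKM, and 4 to 8 when 1 library was left out (8 without BME day 1 replicate c). Between BME + COL1 at day 5 and BME at day 1, 8 were called lower, 5 with the minimum of 5 FPKM, and 6 to 8 when 1 library was left out. Except with the minimum of 5 FPKM, these counts also cover the scarce Ctsf, Ctsh and Ctso. Those were tested only because of their level on BME at day 5, so the counts are not set against the shares of all genes. In the fit reported these shares were 30.3% higher, 9.09% higher and 31.8% lower, in the order of the comparisons. Of the 6 abundant members alone, 5, 2 and 5 were called. The small change of Ctsl between the days on BME turned positive with TPM (0.088), median-ratio (0.11) and quantile scaling (0.087), without short genes (0.0058) and without BME day 5 replicate b (0.039), and ranged from -0.10 to 0.039 when 1 library was left out. That of Ctsc between BME + COL1 and BME day 1 ranged from -0.099 to 0.071 (without BME day 1 replicate c). None of these was called, and the cause was not tested. The share of all FPKM taken by the members on BME + COL1 was 0.144% without short genes and 0.146% with the most abundant transcript, against 0.142%. The order of the 10 members within each group was the same with TPM, without short genes and with the most abundant transcript.

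Replicates with the same letter did not deviate together (correlations of -0.23 to 0.096), so the letters do not pair the cultures. With the replicate block 8, 5 and 8 members were called in the 3 comparisons, the same numbers as without it. Depth limits the values of Ctsf and Ctso on BME + COL1 and of Ctss everywhere, which rest on few fragments.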
